A study of Homo sapiens with 6 samples.

Results

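The TCF4 library was a single CUT&Tag experiment on the human neuroblastoma line SK-N-BE(2), an established culture line. It is described here through its 30704 peaks on chromosomes 1 to 22 and X, of 118064 peaks in the 5 peak lists of the study. A peak was placed at a gene end where its summit, the base of highest signal, lay within 1 kb of either end of a protein-coding gene, which held for 9512 peaks. The other 21192 peaks were away from gene ends. The study used 1 cell line without treatment throughout, so its groups differ only in the antibody: HAND2 and MEIS2 with 2 libraries each, TCF4 with 1, and non-specific IgG as control. Peaks of the IgG library were not analysed here, and the control behind the TCF4 list is not named in the sources used here. With 1 TCF4 library no difference between kinds of peak has a replicate check. The peaks of a library are not replicates, so the values below are descriptions with no test. The antibody is labelled only TCF4, and the reading of it as the E protein of that gene symbol follows that label.

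In CUT&Tag an antibody on chromatin tethers a transposase, which cuts and tags the DNA around the bound protein. TCF4 is an E protein, a broadly expressed basic helix-loop-helix (bHLH) factor that pairs with itself or with lineage-restricted bHLH factors such as HAND2. Such pairs recognise the E-box, CANNTG, and E proteins are best known from distal enhancers of cell identity genes. ID proteins lack the basic region and hold E proteins off DNA. In the sympathetic lineage, from which neuroblastoma arises, bHLH factors act beside PHOX2, GATA and ISL1 factors.

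Sequences under strong promoter summits are shown first, because they carry the contrast between the E-box and the GC-rich DNA on which many gene-end peaks sat. Each is the 101 bases centred on a TCF4 summit, cut from the RefSeq promoter windows of GRCh38.p14 (250 bases before to 50 after a start) and written 5′ to 3′ on the strand of the gene. Capitals mark every CANNTG and every GGGCGG, the GC box, on either strand (the latter reads CCGCCC on the other strand). The 6 strongest gene-end peaks that such a window could show were these.
SNX22: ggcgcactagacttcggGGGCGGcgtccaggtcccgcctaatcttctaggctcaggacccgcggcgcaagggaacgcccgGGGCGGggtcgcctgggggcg
CLIC4: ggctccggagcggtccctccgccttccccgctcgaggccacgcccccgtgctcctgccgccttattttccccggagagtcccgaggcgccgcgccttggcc
TBL2: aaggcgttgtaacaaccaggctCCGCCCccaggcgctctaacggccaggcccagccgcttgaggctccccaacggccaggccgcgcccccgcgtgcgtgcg
RPL10: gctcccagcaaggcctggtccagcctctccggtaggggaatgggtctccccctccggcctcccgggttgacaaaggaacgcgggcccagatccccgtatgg
SERTAD4: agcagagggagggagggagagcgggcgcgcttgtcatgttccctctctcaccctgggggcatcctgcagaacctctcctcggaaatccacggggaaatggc
GAA: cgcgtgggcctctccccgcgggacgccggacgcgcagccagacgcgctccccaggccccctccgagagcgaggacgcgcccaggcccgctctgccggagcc
They lie at chr15:64151554-64151654 (+), chr1:24745208-24745308 (+), chr7:73578615-73578715 (-), chrX:154397834-154397934 (+), chr1:210232647-210232747 (+) and chr17:80101341-80101441 (+). Their summits fell 86 to 190 bp before the start. The window fixed that side, as a stretch fits only where the summit precedes the start. The folds of the 6 peaks ran from 44.5 at SNX22, a sorting nexin, to 30 at GAA, the lysosomal alpha-glucosidase. None of the 6 stretches holds a CANNTG, and 2 of 6 hold a GC box. Their GC content was 63.4 to 81.2%.

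For contrast, the 3 strongest gene-end summits with an E-box in the same 101 bases are shown, chosen for that feature.
RD3: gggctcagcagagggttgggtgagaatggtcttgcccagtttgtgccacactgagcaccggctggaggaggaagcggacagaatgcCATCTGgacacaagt
CEP57L1: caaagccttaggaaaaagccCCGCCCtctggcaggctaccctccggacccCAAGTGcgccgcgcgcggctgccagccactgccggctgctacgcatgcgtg
AVPR2: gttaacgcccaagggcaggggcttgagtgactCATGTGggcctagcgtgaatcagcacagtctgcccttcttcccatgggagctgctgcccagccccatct
These are chr1:211492284-211492384 (-), chr6:109095047-109095147 (+) and chrX:153902446-153902546 (+). The fold was 29.1 at RD3, a retinal guanylate cyclase regulator, 23.5 at CEP57L1 and 23.2 at AVPR2, the vasopressin receptor of the kidney. Its E-box reads CATCTG at RD3, CAAGTG at CEP57L1 and CATGTG at AVPR2, and it lies at the middle of the stretch at CEP57L1 only. The 3 strongest peaks away from gene ends that fell in the window of another listed start, a non-coding gene or a further promoter, were these.
LOC124904724: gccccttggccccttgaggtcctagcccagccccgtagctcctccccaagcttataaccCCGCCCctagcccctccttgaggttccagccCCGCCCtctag
LOC100288175: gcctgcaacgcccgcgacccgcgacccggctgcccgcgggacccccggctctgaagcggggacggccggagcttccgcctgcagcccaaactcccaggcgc
LINC01569: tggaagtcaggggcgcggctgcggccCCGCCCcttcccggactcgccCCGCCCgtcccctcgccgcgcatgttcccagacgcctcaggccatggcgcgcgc
They lie at chr19:43668604-43668704 (+), chr1:1059488-1059588 (+) and chr16:4253864-4253964 (-), with folds of 59.2, 47.4 and 33.5. None holds a CANNTG, and 2 of 3 hold GC boxes.

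TCF4 signal at gene ends was broad and high in fragments, yet it stood no higher above its local background than signal elsewhere. The pile-up, the number of overlapping fragments at the summit, had a median of 85.0 at gene ends and 50 away from them. The local background, the level the peak caller expected there from the control, rose by a like factor, from a median of 9.41 scaled control fragments away to 16.5 at gene ends. Fold is the pile-up plus 1 divided by the background plus 1. Its median was 4.87 at gene ends (quartiles 3.56 and 7.27) and 5.05 elsewhere (3.60 and 8.35). In 47.0% of all pairs of 1 gene-end and 1 other peak the gene-end peak had the higher fold, close to an even split. The same share was 65% for pile-up and 73.3% for background.

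Width and significance went with the fragments. Gene-end peaks had a median width of 989.5 bp (658 to 1478) against 788 bp (536 to 1285) away. The median −log10 q, the caller's significance after correction over the genome, was 28.5 (12.5 to 67.9) against 17.8 (7.90 to 53.3). At the same fold, −log10 q rises with the number of fragments. In pairs, gene-end peaks were wider in 58.5% and more significant in 58.2%. Within classes of pile-up the width difference was smaller and changed direction. With up to 30 fragments gene-end peaks were still the wider, with medians of 553 against 522 bp, and at 30 to 60 with 731 against 687 bp. At 60 to 120 fragments the medians were 966 bp at gene ends and 975 bp away, and at 120 to 240 fragments 1267 and 1312 bp. At 240 to 480 gene-end peaks were the narrower, with 1576 against 1777 bp, and above 480 with 2001 against 2275 bp. In every pile-up class the fold was lower at gene ends, with medians of 6.69 against 10.3 at 120 to 240 fragments.

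The strongest peaks were distal. Of peaks with a fold of 5 to 10, 33.6% lay at gene ends (exact 95% binomial interval 32.7 to 34.6), near the 31.0% of all peaks (30.5 to 31.5). The share was 21.9% at folds of 15 to 20, 10.1% at 30 to 50 (40 of 398 peaks, 7.28 to 13.4), and 5.08% above 50 (6 of 118 peaks, 1.89 to 10.7). Of the 100 peaks of highest fold, 6 were at gene ends, against 13 of the 100 of highest −log10 q, 17 of the 100 of highest pile-up and 26 of the 100 widest. These intervals cover counting error only, and the files do not say whether the fragments are independent molecules. By pile-up the gene-end share was 42.0% at 60 to 120 fragments, 45.1% at 120 to 240 and 39.4% at 240 to 480, all above the 31.0% of all peaks, and 28.0% above 480. By background alone the share climbed from 10.6% of peaks with up to 5 scaled control fragments to 68.3% of those with over 30. Among peaks with 20 to 30, the median fold was 4.83 at gene ends and 6.72 away, while with 5 to 10 it was 4.78 and 4.53. The part of this background in the gene-end signal was not tested.

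**Figure D1:**
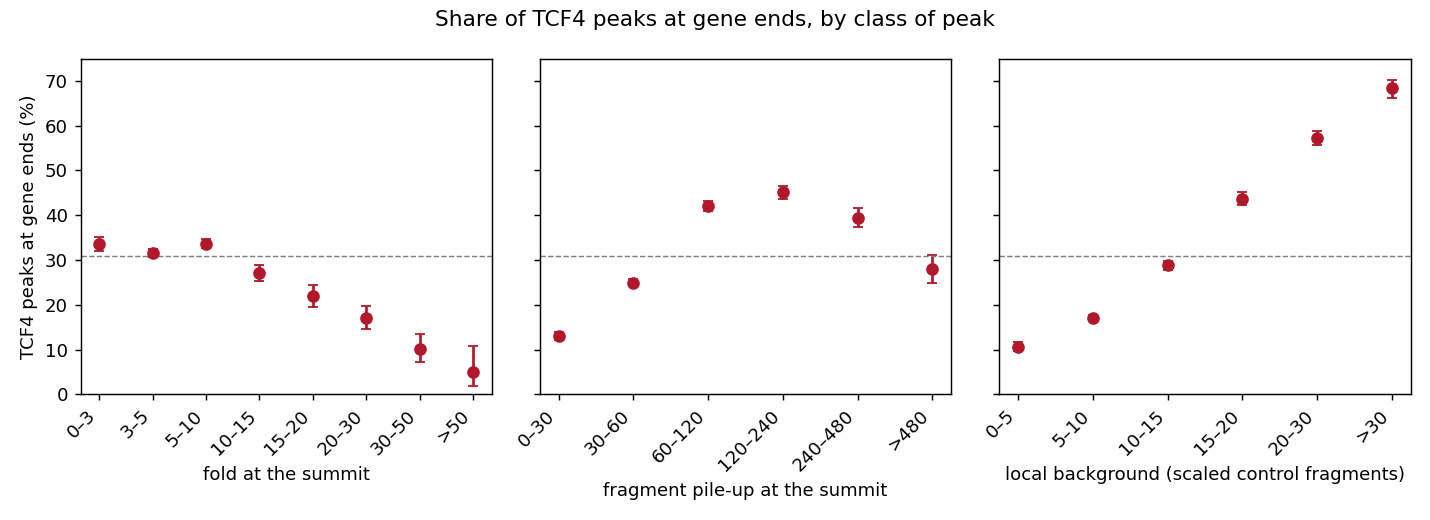
Share of TCF4 peaks at gene ends (%, points, with exact 95% binomial intervals) in classes of fold, of fragment pile-up and of local background at the summit. The dashed line is the share of all peaks, 31.0%. The share falls to 5.08% above a fold of 50, peaks at 45.1% for pile-ups of 120 to 240, and rises to 68.3% above a background of 30.

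Distance showed where the change lay. Class medians of pile-up were 86.0 to 93.0 up to 500 bp from an end, 66.5 at 500 to 700 bp and 43.5 to 53.0 farther off. Background fell over the same stretch, from a median of 18.8 at 50 to 100 bp to 11 at 700 to 1000 bp. Fold was lowest 1.6 to 5 kb from an end, where class medians were 4.36 to 4.43, and reached 5.86 beyond 100 kb. Peaks away from gene ends lay a median of 17511 bp from the nearest end (quartiles 5627 and 49193), and 2486 of them, 11.7%, lay over 100 kb away. The 1 kb limit itself separated little. The 266 peaks at 900 to 1000 bp had a median fold of 4.52, with PBX3 highest at 48.5, and the 206 at 1000 to 1100 bp a median of 4.47, with LARS2 highest at 145.

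**Figure D2:**
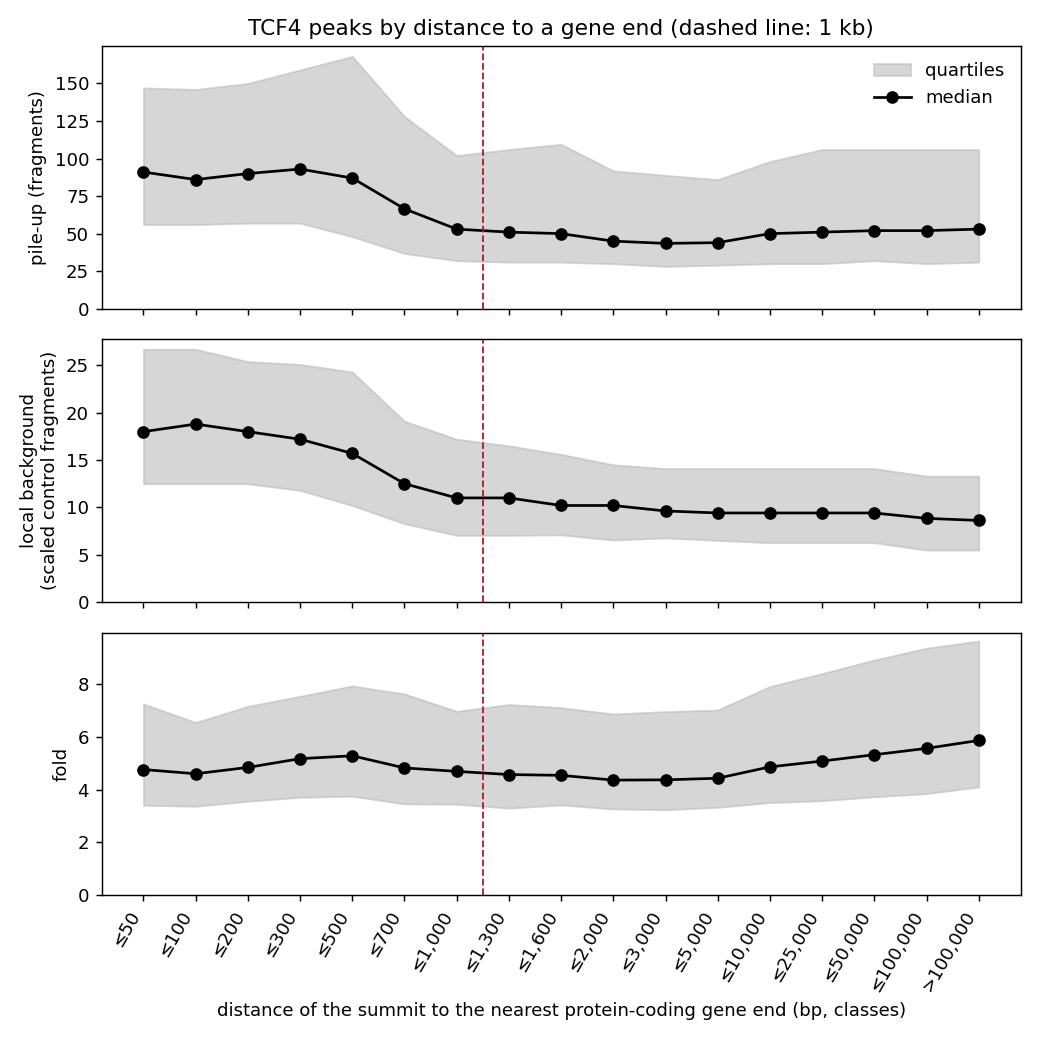
Pile-up (fragments), local background (scaled control fragments) and fold of TCF4 peaks by class of distance from the summit to the nearest protein-coding gene end (bp). Points are medians and the band spans the quartiles. Pile-up and background drop together between 500 bp and 1 kb, while the median fold stays between 4.36 and 5.86 throughout.

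The gene-end peaks were mainly peaks of 5′ ends. Strand was known for 15812 of 19974 genes. Of the 9512 peaks, 6666 (70.1%) lay at a 5′ end alone, 837 (8.80%) at a 3′ end alone, 323 at one of each, and 1686 (17.7%) at an end whose side was not known. At 5′ ends the median pile-up was 92.0, background 18.0, width 998 bp, −log10 q 31.0 and fold 4.93. Peaks at 3′ ends had a pile-up of 42.0, background 9.41, width 828 bp, −log10 q 13.2 and fold 4.42, so they resembled the peaks away from gene ends in fragments and background. A 3′ end peak had more fragments than a peak away from gene ends in 45.4% of pairs, and more background in 50.4%.

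Summits around starts lay mostly just inside the gene. Within 1 kb of a 5′ end, 2479 of 6989 summits (35.5%, 34.3 to 36.6) lay upstream. The fullest 100 bp bin was 100 to 200 bp downstream, with 1641 summits, and the first 100 bp downstream held 1202. A smaller crest of 718 stood 200 to 300 bp upstream, and the 100 bp just before the start held 438. Upstream peaks were wider, with a median of 1157 against 924 bp, and had a fold of 5.24 against 4.84. Around 3′ ends no such crests appeared, with 1160 summits within 1 kb and 42.5% of them upstream. A single start per gene was used, so summits at other promoters of a gene fall into other bins.

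**Figure D3:**
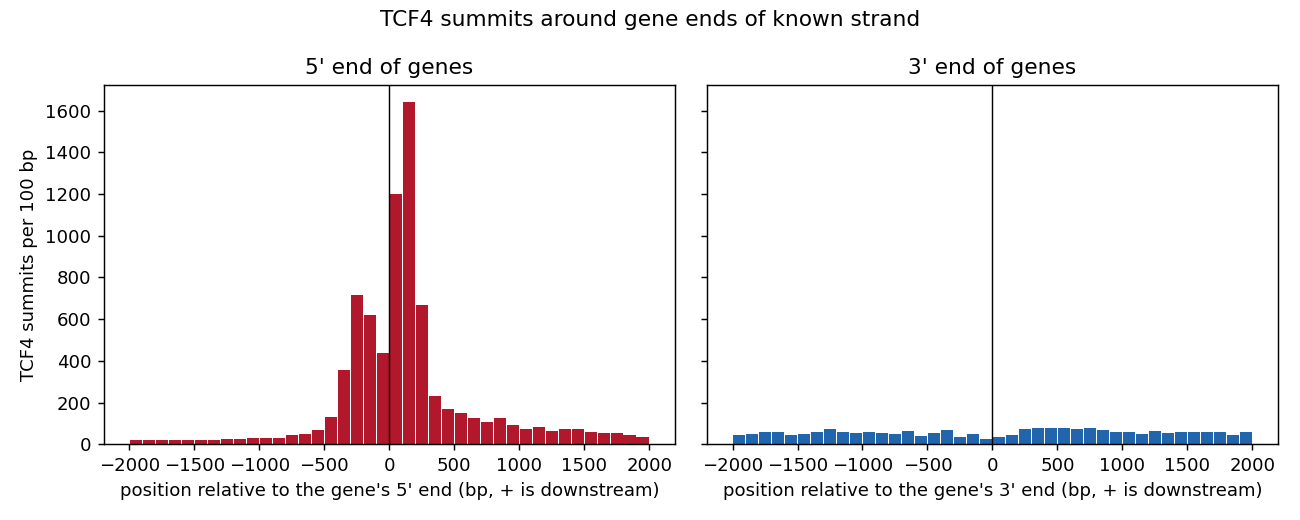
Number of TCF4 summits per 100 bp around the 5′ ends (left) and 3′ ends (right) of genes with known strand, in bp, with positive positions downstream. Summits at 5′ ends stand in 2 crests, 1202 at 0 to 100 and 1641 at 100 to 200 bp downstream, and 718 at 200 to 300 bp upstream, with 438 in the 100 bp before the start.

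Away from gene ends, 2085 peaks (9.84%) sat within 1 kb of another start in the RefSeq promoter table. For 1175 of these (56.4%) the start was a further promoter of a protein-coding gene, and for 910 (43.6%) that of a long non-coding RNA. They came close to gene-end peaks in background (13.3), width (966 bp) and −log10 q (27.3), with a fold of 5.29. Another 12263 (57.9%) lay inside a protein-coding gene, with a median fold of 4.88 and a pile-up of 45. The remaining 6844 (32.3%) lay between genes, with a fold of 5.29 and a pile-up of 52.0. Chromosomes differed in the mix. The gene-end share was lowest on chromosome 22, at 21.9%, with 259.6 peaks away from gene ends per 100 genes, and highest on the X, at 48.8%, with 31.2 per 100 genes. The whole set gave 106 per 100 genes. Differences in copy number between chromosomes of this line were not analysed here.

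The 10 strongest gene-end peaks were led by the shared start of JMJD7, a lysyl hydroxylase, and its readthrough JMJD7-PLA2G4B, at chr15:41826828-41828778. Its fold was 63.2 (exact 95% Poisson interval of the pile-up, background held fixed, 59.1 to 67.4), from 904 fragments over a background of 13.3. The 3′ end of MAPKBP1 lay 333 bp from the same summit. IGFBP4, which binds insulin-like growth factors, reached 57.5 at 771 bp past its 3′ end. SERTAD3 and DAND5, a secreted inhibitor of NODAL and BMP signals, both stood at 56.4, the first 244 bp before its start and the second at its 3′ end. PRR5-ARHGAP8 had 54.7, 128 bp inside its start, which also lies in PRR5. GNG8, a G protein gamma subunit, had 53.0. PBX3, a TALE homeodomain partner of MEIS proteins, had 48.5 with its summit 924 bp before the start and 520 bp from that of PBX3-DT, a non-coding RNA. PCOLCE, an enhancer of procollagen cleavage, had 45.9, the pro-apoptotic BAD 45.8, shared with the ends of GPR137 and PLCB3, and CIMAP1D 45. Several therefore lay at 3′ ends or between closely spaced genes. HAND2 replicates 1 and 2 each had a peak over 7 of the 10, MEIS2 replicate 1 over 6 and MEIS2 replicate 2 over 0. No peak of any of these 4 libraries lay over the JMJD7, PRR5-ARHGAP8 and CIMAP1D peaks.

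The 10 strongest peaks away from gene ends, not all of them named here, had folds of 84.7 to 199.7, all above the strongest gene-end peak. The highest lay inside MRPL23, which encodes a mitochondrial ribosomal protein, at chr11:1977985-1981180 and 31939 bp from the gene's end. It had 2860 fragments over a background of 13.3, a fold of 199.7 (192 to 207). Next came a peak of 169 inside the non-coding LINC02602, 898 bp from its listed start and 35077 bp from HHAT, the Hedgehog acyltransferase. LARS2, a mitochondrial leucyl-tRNA synthetase, held a peak of 145 only 1042 bp from its 3′ end. A fold of 136 stood in the pseudogene TMEM191A near PI4KA, and since that family has close copies, its reads may be split among them. HMCN2 held 122, AFAP1, an actin filament binding protein, 96.5, CABLES1 91.0 and the kinase LMTK3 85.7. The last, of 84.7, lay at LOC124905134. HAND2 replicates 1 and 2 each covered 9 of the 10 and MEIS2 replicate 1 covered 7.

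Across all peaks, overlap with the other libraries rose with TCF4 fold in both kinds of peak and was greater away from gene ends for HAND2 in each of 4 fold classes, cut at the quartiles of all TCF4 peaks. In the lowest class (fold 1.21 to 3.58), HAND2 replicate 1 had a peak over 11.8% of gene-end and 19.7% of other TCF4 peaks, and replicate 2 over 19.6 and 28.6%. In the highest class (from 7.97) the shares were 55.4 and 80.7% for replicate 1 and 69.3 and 87.2% for replicate 2. MEIS2 replicate 1 went from 6.31 to 34.1% at gene ends and from 4.71 to 48.0% away, and was higher away only in the upper fold classes: in the second class it was 11.2% at gene ends and 9.81% away. MEIS2 replicate 2 stayed at or below 9.54%. No peak of the 4 libraries lay over 52.3% of gene-end peaks (51.3 to 53.3) and 39.1% of the others (38.4 to 39.8). In the highest class these were 25 and 10.3%. An overlap of 1 bp counted, stronger peaks are wider, and the HAND2 and MEIS2 lists share the IgG control, so the shares do not measure joint binding.

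**Figure D4:**
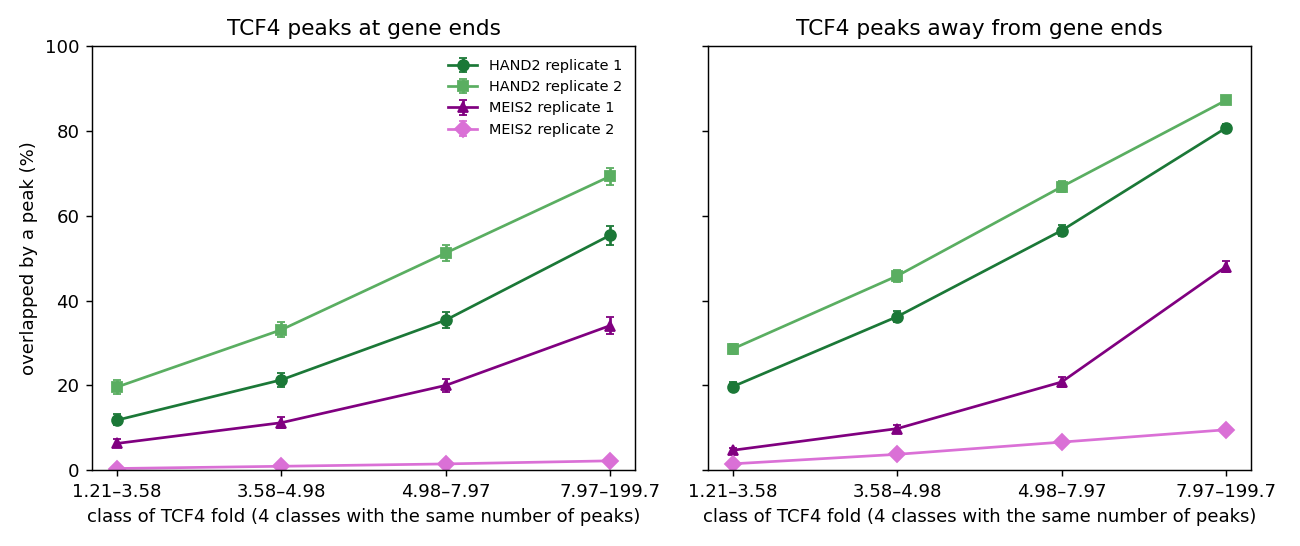
Share of TCF4 peaks (%) at gene ends (left) and away (right) that overlapped a peak of each HAND2 and MEIS2 library, by class of TCF4 fold, with exact 95% binomial intervals. In the highest class HAND2 replicate 2 covers 69.3% of gene-end and 87.2% of other peaks, and MEIS2 replicate 2 stays below 10 in every class.

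Of 19974 protein-coding genes, 10025 (50.2%) had a summit within 1 kb of an end, and 10297 (51.6%) had one away from gene ends, inside the gene or within 50 kb. Both held for 6590 genes, neither for 6242. Of the 15812 genes of known strand, 7808 (49.4%) had a summit at the 5′ end and 1210 (7.65%) at the 3′ end. Over all genes with such peaks the median of the strongest fold per gene was 5.09 at ends and 8.17 away. The span searched away is larger and often holds more peaks per gene. The strongest of more peaks tends to be higher, so these medians are not on equal terms. Over single peaks the median fold was 4.87 at ends and 5.05 away.

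At gene ends, cell cycle and ribosomal protein lists stood above all genes, and lists of other tissues below. A peak at an end was present for 28 of 34 genes of the cell cycle and DNA replication (82.4%, 65.5 to 93.2), against the 50.2% of all genes. Ribosomal protein genes had 58 of 84 (69.0%, 58.0 to 78.7). The catecholamine genes (75%, 50.9 to 91.3) and adrenergic regulators (68.0%, 46.5 to 85.1) described below had shares of a like level. The first interval starts near the 50.2% of all genes and the second spans it. The shares alone therefore do not set the housekeeping lists apart from these small lists. Mitochondrial aminoacyl-tRNA synthetases had 11 of 17 (64.7%), with an interval of 38.3 to 85.8 that spans the background of 50.2%. Nuclear subunits of oxidative phosphorylation stood near that background, with 18 of 35 (51.4%). Liver genes had 3 of 20 and blood cell genes 4 of 21. Olfactory receptor genes had 0 of 392, which allows a share of up to 0.937% (exact binomial limit). The median fold of the end peaks was 3.95 for the tRNA synthetases, 5.46 for the cell cycle and 5.52 for ribosomal proteins, beside 5.09 for all genes. Over all lists with an end peak it ran from 2.36 for the liver genes to 7.33 for the catecholamine genes. CCND1, the cyclin of the G1 phase, had the strongest of the cell cycle end peaks, at 30.4 (27.0 to 34.1). E2F2 had 20.5, MCM2, a subunit of the replicative helicase, 17.6 and RRM2, of ribonucleotide reductase, 12.9. The peaks at MCM2 and RRM2 had no peak of any other library over them. RPL10 led the ribosomal proteins at 33.3, and CARS2 the synthetases at 20.5.

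Peaks away from gene ends were present for 24 of 25 Notch pathway genes (96.0%) and 23 of 25 adrenergic regulators (92.0%), against 51.6% of all genes. Their median strongest folds were 13.0 and 11.4, against 8.17, with no adjustment for the number of peaks per gene. At the ends the same lists had 14 of 25 (56.0%, median fold 5.67) and 17 of 25 (68.0%, 6.24). The other lineage lists were nearer the background. The bHLH and ID factors had 20 of 31 away (64.5%, close to the 64.7% of the cell cycle list) with the highest median of the lists, 15.5, and 16 of 31 at ends (51.6%, 6.13). Mesenchymal genes had 21 of 30 away (70%, 7.13) and neuronal genes 18 of 28 (64.3%, 9.36). Some genes stand in several lists, and the lists were chosen with earlier results of these data known.

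**Figure D5:**
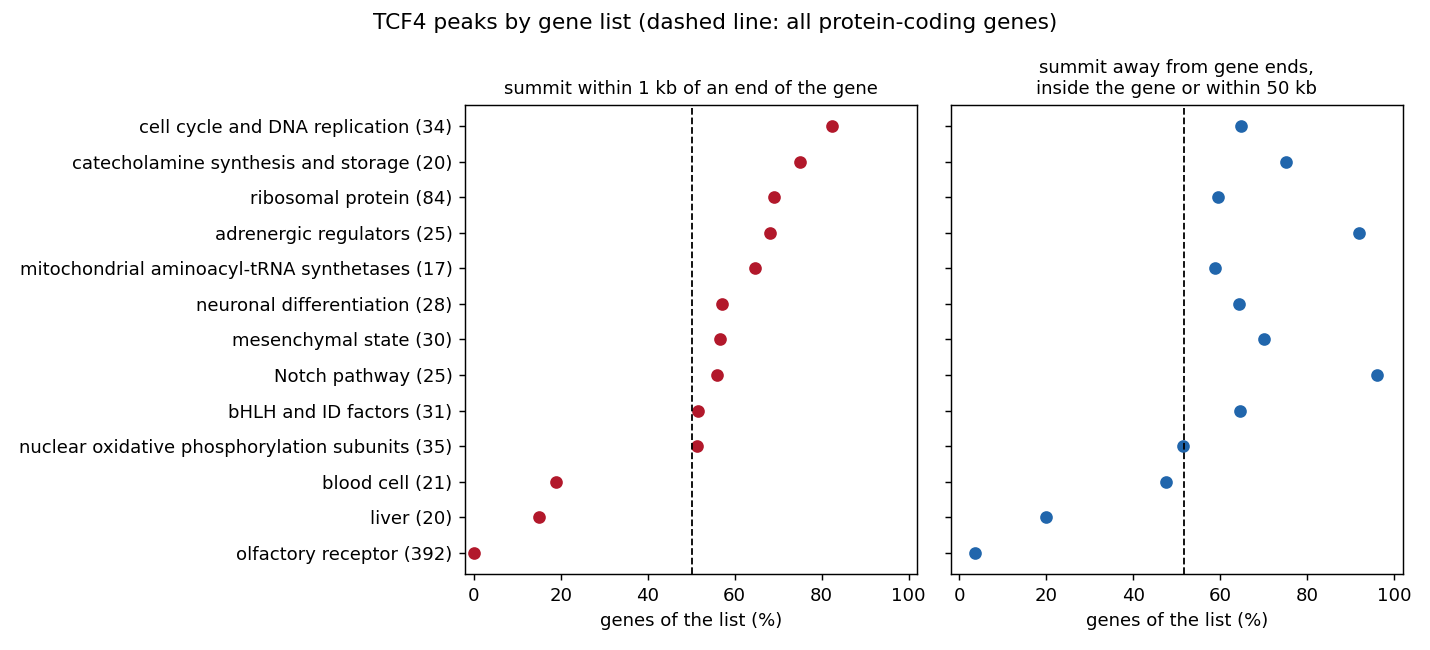
Share of genes of each list (%, number of genes in brackets) with a TCF4 summit within 1 kb of an end (left) or away from gene ends but inside the gene or within 50 kb (right). Dashed lines are all protein-coding genes, 50.2% and 51.6%. Cell cycle genes are highest on the left (82.4%) and Notch pathway genes on the right (96.0%), with olfactory receptors lowest on both.

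Among the bHLH and ID factors, ATOH8 held the strongest peak away from gene ends, 68.8 (66.0 to 71.7) inside the gene and 18370 bp from its 5′ end. HAND1, the paralog of HAND2, had 67.0 at a summit 39184 bp beyond its 5′ side, with peaks of all 4 other libraries over it. ID1 had 36.1 away and 12.5 at its 3′ end, ID2 28.2 away and 12.9 at its 3′ end, and ID3 13.7 at its start. Away, ID3 had 21.8. Every ID gene of the list, inhibitors of E proteins, thus had TCF4 peaks both at an end and away within 50 kb. Both kinds were present for 33.0% of all protein-coding genes. The away peak counted for ID1 lay nearest to HM13. TCF4 itself had no summit within 1 kb of either end. Its strongest peak lay inside the gene at chr18:55321573-55322984, with 73 fragments over a background of 2.35, a fold of 22.1 (17.4 to 27.7), and all 4 other libraries had a peak over it. At HAND2 the peak at the 5′ end had 12.8 (10.1 to 16.1) and one 4049 bp beyond the 3′ end 23.8 (22.3 to 25.4). At MEIS2 the 5′ end had 9.85 (8.44 to 11.4) and a peak 9202 bp away 9.47 (7.76 to 11.4), which do not differ beyond their counting intervals.

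Among the other adrenergic regulators, TBX2 had 54.4 away and 13.6 at an end, KLF13 51.0 inside the gene and 12.2 at its start, and LMO1, an LMO cofactor linked to neuroblastoma risk, 47.3 inside the gene. PHOX2A, a homeodomain regulator of noradrenergic identity, had 16.7 at 983 bp from its 3′ end. In the Notch pathway the target HES1 had 38.8 upstream, 1290 bp from its start, and 23.5 beyond its 3′ end. The glycosyltransferase LFNG had 32.4 and the ligand DLL4 30.5, both away, while at ends the coactivator MAML1 had 12.7 and the target HEY1 9.

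Catecholamine genes had strong peaks of both kinds. A peak at an end was present for 15 of 20 (75%, median fold 7.33), against 50.2% of all genes. One away was present for 15 of 20 (75%, 11.7), against 51.6%. The exact interval of either share, 50.9 to 91.3, starts near these values for all genes. SLC6A2, the noradrenaline transporter, had 35.4 (33.0 to 37.8) at 9 bp inside an end and 71.0 (67.3 to 74.9) at 3493 bp outside. DBH, which makes noradrenaline, had 34.0 at 373 bp before its start. TH, the rate-limiting enzyme, had 11.2 at an end and 45.5 at 21741 bp, and the granule protein CHGA 10 at its start and 45.5 at 10234 bp past its 3′ end. The strongest peak away stood above the strongest at an end for SLC6A2, TH and CHGA beyond the counting intervals. For DBH the strongest one away had 26.9, below the 34.0 at its start. Each is the highest of unequal numbers of peaks, for TH of 17 away and 1 at an end. The counting intervals do not cover that choice. Of the neuronal genes, TUBB3 had 15.9 and SNAP25 15.2 at an end, and the adhesion protein L1CAM 40.4 inside the gene. Of the mesenchymal genes, SNAI2, a repressor of epithelial genes, had 29.0 at an end, and MAFF had 46.5 away. In the liver list APOC3 had 15.6 at an end. A nearby peak does not assign its target. The one counted for TOP2A at 39.9 lay nearest to IGFBP4. Those away for TBX2, CHGA, MAFF, ID1, DLL4 and HAND2 lay nearest to BCAS3, ITPK1, PLA2G6, HM13, VPS18 and SCRG1, in that order.

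Some genes gathered many peaks. GSE1, a coregulator, had 126, of which 125 were away from gene ends and 111 inside the gene, or 21.9 inside per 100 kb. ZMIZ1, a coactivator, had 64 with 22.6 inside per 100 kb and the strongest fold of these genes, 73.1. MEGF6 had 48 and 22.7 inside per 100 kb. MAD1L1 had 76, KCNQ1 62, CAMTA1 61, ZNF469 54, VAV2 52 and PRDM16 47. CAMTA1 is the longest, with 6.10 inside per 100 kb. These genes had at most 2 summits at their own ends, and VAV2 and PRDM16 had 0.

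Promoter sequence was compared in 21983 windows of 300 bases at starts of protein-coding genes. A TCF4 peak covered some part of 10649 of them. Coverage rose with GC content, from 1.22% of windows under 40% GC to 32.3% at 50 to 60% and 77.6% at 70 to 80%, with 74.8% at 80% or more. Windows with a peak had a median GC of 68.0%, and the 11334 without one 54.7%. The GC box GGGCGG was in 77.9% of windows with a peak and 35.9% of those without, and in 56.2% of all.

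E-boxes did not follow the peaks at promoters. CANNTG, on both strands, occurred in 57.3% of windows with a peak (56.3 to 58.2), 72.5% of those without (71.6 to 73.3) and 65.1% of all. Windows rich in GC hold fewer of any CANNTG, but the order was the same in each GC class: 71.1 against 77.3% under 55% GC, 64.7 against 73.2% at 55 to 65%, 55.9 against 61.5% at 65 to 75%, and 44.9 against 54.9% above. The specific forms, each a subset of CANNTG, were CAGCTG in 16.9 and 19.1% (18.0% of all), CAGGTG in 18.0 and 21.9% (20% of all), CATCTG in 8.91 and 15.3% (12.2% of all) and CACGTG in 10.1 and 6.63% (8.32% of all). CCAAT was in 34.3 and 35.1% (34.7% of all). Among the 132 windows that held a summit of fold over 15, 50% had a CANNTG (41.2 to 58.8).

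Position within the windows gave 1 further exception, CAGGTG. In the 3749 windows that held a summit, counted over all listed starts and so including those of non-coding genes, CANNTG occurred 3.13 times per kb both within 50 bp of the summit and farther off, and CAGCTG 0.727 times in both. CAGGTG occurred 0.902 times per kb near the summit (0.803 to 1.01) and 0.650 farther off (0.594 to 0.709), intervals that do not overlap. GGGCGG was at 6.15 near and 7.52 farther, and CCAAT at 1.28 and 2.01. In 101 bases centred on the summit, 23.8% of 1597 gene-end peaks (21.7 to 26.0) and 30.5% of 406 peaks at other listed starts (26.1 to 35.3) held a CANNTG. The middle 101 bases held one in 24.1% of promoter windows with a peak and 35.9% of those without. Within windows of 65 to 75% GC the gap was smaller, with 23.4% of summit-centred stretches of gene-end peaks (20.7 to 26.4) against 26.3% of the middles of windows without a peak (24.2 to 28.4), and the intervals overlap. CAGGTG was in 7.51% of gene-end summit stretches, against 6.13% of the middles of windows with a peak and 8.59% without. At 65 to 75% GC it was in 8.08% of these stretches (6.36 to 10.1) and 10.8% of middles without a peak (9.39 to 12.3). The exception of CAGGTG thus holds within windows, not against windows without a peak. Among these 1597 gene-end summits, the RD3, CEP57L1 and AVPR2 stretches above are thus of a minority kind, and the 6 strongest of the usual kind. Such a stretch fits only where the summit precedes a listed start. Most of the 9512 gene-end summits, many of them downstream of a start, were therefore not searched in this way. A motif match is a description of letters, not a bound site. The sequence under the other peaks away from gene ends was not analysed here, so the same comparison was not made for the strongest peaks of the library.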

How the data were processed

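CUT&Tag peak lists from SK-N-BE(2) were analysed, with TCF4 (1 library) as the main one and 2 HAND2 and 2 MEIS2 lists for overlap. Reads were handled with bcl2fastq 2.17, Bowtie2 and MACS3 3.0.0a6 on hg38, per the submitters' processing notes, which name no Bowtie2 version. The control of the TCF4 list and the caller's options were not given in the sources used here. Each deposited list was called on 1 sample and gives, as the authors' caller wrote them, an integer score (not used), the fold (a ratio of summit pile-up to local background) and −log10 p and −log10 q. Of 30711 TCF4 peaks, 7 lay on other sequences than chromosomes 1 to 22 and X and were not used. The lowest −log10 q was 2.00.

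The lists hold no read totals. Whole pile-ups and backgrounds were recovered from fold and −log10 p within a relative tolerance of 5e-05, for 100% of TCF4 peaks. The recovery was tested on simulated data. A scaled control fragment is worth 0.784 in the background. Genes came from the RefSeq table of GRCh38.p14, strand and 300-base windows from the RefSeq promoter table, which gave strand for 15812 of 19974 genes. Exons, introns and other parts of genes were not used, as the tables do not give them. Coordinates are 1-based.

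Named genes are those of the 10 strongest peaks of each kind, the 10 genes with most peaks, up to 4 per list and kind, and HAND2, MEIS2 and TCF4. A few genes that this rule names are not reported here. The members and lists were chosen with earlier results of these data known. The olfactory receptor and ribosomal protein lists were added by symbol after the files were read, and 35 of 36 oxidative phosphorylation genes matched. Shares have exact 95% binomial intervals and folds exact Poisson intervals, for counting error only. Python 3.11.15, numpy 2.4.6, scipy 1.17.1 and pandas 2.3.3 were used. Alternatives were other windows, thresholds, overlap rules and filters on background.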

Additional observations from a re-analysis of the deposited data

How the results depend on the processing

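The single TCF4 library gives no replicate to leave out, and no paired analysis was possible because TCF4 has 1 library. The share of peaks at gene ends, 31.0% as reported, was 25.9% with a 500 bp window, 36.7% with 2 kb, 34.7% where any base of the peak counted, 32.4% with a −log10 q of 5 or more, 22.4% among the 5000 peaks of highest fold and 26.1% without peaks of 30 or more control fragments. Leaving out peaks of 100 or more control fragments, a limit chosen after seeing the data, kept 31.0%. The median fold at gene ends was 5.08 with a −log10 q of 5 or more, and away from them 5.57, with 5.09 at 2 kb and 4.97 without peaks of 30 or more control fragments. Median width at gene ends was 1029 bp with the stricter q and 940 bp without those high-background peaks, and away 852 and 762 bp, with 800 bp at a 500 bp window. The median −log10 q at gene ends was 30.3 at 500 bp, 26.4 at 2 kb, 31.2 with the stricter q and 22.7 without high-background peaks, and away 22.2 and 16.3 under the last 2. In all of these, width and −log10 q were higher at gene ends and fold was lower. Where the TCF4 summit had to lie inside the other peak, overlap at gene ends and away was 24.6 and 45.6% for HAND2 replicate 1, 36.5 and 54.4% for replicate 2, 14.8 and 18.8% for MEIS2 replicate 1, and 0.347 and 3.59% for replicate 2. With a −log10 q of 5 or more in both lists it was 25.1 and 36.8% at gene ends for the HAND2 replicates, 13.9 and 20% for MEIS2 replicate 1, and 0.760 and 4.48% for replicate 2. The cause of these shifts was not tested. The share of liver genes with an end peak was 15% as reported and 5% under both a 500 bp window and the stricter q, and that of blood cell genes was 19.0% and 9.52% at 500 bp. Shares of the other lists moved by less than 1.5 times. The planned search for E-boxes in 100 bases around each summit needs a genome and was not run; 101 bases were searched only inside promoter windows.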
